A study of Mus musculus with 9 samples.

Results

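The cartilage matrix genes described here are 10 genes of cartilage: *Acan*, *Comp*, *Matn1*, *Matn3*, *Cnmd*, *Hapln1*, *Sox9*, *Ucma*, *Chad* and *Prg4*. They were picked by gene symbol, with earlier results of these data known, and 9 of the 10 were found among the 18272 gene rows of the expression table. The expression of *Matn1* was not analysed here, and the gene enters only the search of promoter windows. The other 9 are given with their NCBI gene numbers where each is first described.

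Cartilage is made by chondrocytes, which surround themselves with a network of type II collagen fibrils filled with aggrecan, a proteoglycan that holds water and lets the tissue bear load. The long bones carry it as articular cartilage at the joint ends and as the growth plate, where chondrocytes divide, enlarge and give way to bone. SOX9 is the transcription factor that commits cells to this lineage, and many genes of the matrix are its known targets. Lubricin, the product of *Prg4*, is made at the joint surface and by the synovial lining rather than deep in the matrix.

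RNA-seq libraries were prepared from the tibia of 9 female C57BL/6J mice, 1 library per mouse, in 3 groups of 3. NGT mice (normal glucose tolerance) had received citrate vehicle and then saline. T1D mice had received a single injection of streptozotocin (STZ), which kills the beta cells of the pancreas, and then saline. Lira mice had received STZ and then daily subcutaneous liraglutide (0.6 mg/kg/day), a drug that activates the GLP-1 receptor. The mice were 10 to 11 weeks old at purchase and had 1 week of acclimatisation, treatment began 2 weeks after STZ and lasted 8 weeks, and the label of Lira mouse 3 alone gives 9 weeks. T1D and Lira mice share the toxin and the diabetes that followed it, which cannot be told apart here. The authors reported better glucose control with liraglutide alone than with saline, mainly late in the treatment. In Lira against T1D mice, the drug and the lower glucose cannot be told apart either. The 3 bones per group came from larger groups of mice, and the comparisons asked what diabetes did to the bone transcriptome and how liraglutide treatment differed from saline in diabetic mice.

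Library totals were between 13086373 and 16528394 estimated counts, and 13960 genes had at least 10 counts in at least 3 libraries and were tested. Although the bones had been cleaned of muscle, 19 skeletal muscle genes took 13.9% (T1D mouse 1) to 26.1% (NGT mouse 3) of the counts. Bone was also detected, with a summed level of 13 osteoblast genes of 650 to 7441 CPM (counts per 1e6, with library totals scaled by TMM, edgeR's correction for composition). T1D mouse 1 and Lira mouse 3 held the highest level of 20.7% and 19.9% of the tested genes, against 4.11% to 11.4% in the other libraries. Of these libraries, T1D mouse 1 held high levels of the cartilage matrix genes, whose fold changes are therefore given with and without it.

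Of the 9 cartilage matrix genes measured, 6 (*Prg4*, *Chad*, *Comp*, *Sox9*, *Acan* and *Hapln1*) passed the count minimum and 3 (*Cnmd*, *Matn3* and *Ucma*) did not. Between genes, levels can be compared on the authors' FPKM values, which account for gene length. On that scale *Prg4*, *Chad* and *Comp* came first. Mean FPKM over the 9 libraries was 84.0 for *Prg4*, above 95.9% of all gene rows, 24.2 for *Chad* and 14.4 for *Comp*. These means leaned on T1D mouse 1, without which (a setting added once the data had been seen) they were 37.0, 19.7 and 8.42 FPKM, and the medians over the 9 libraries were 18.9, 18.7 and 8.80 FPKM. The classical genes of the chondrocyte were low. *Sox9* had a mean FPKM of 1.25, *Acan* of 0.433, *Cnmd* of 0.34, *Hapln1* of 0.262, *Ucma* of 0.179 and *Matn3* of 0.0733, and without T1D mouse 1 these means ran from 0.055 (*Matn3*) to 0.751 (*Sox9*). *Acan* thus stood above only 28.8% of the rows. The first 3 places were shared by *Prg4*, *Chad* and *Comp* in 8 of the 9 libraries, with *Chad* ahead of *Prg4* in 4 of these, so neither of those 2 neighbours led throughout. In NGT mouse 2, *Sox9* stood above *Comp*. Among *Sox9* and the 5 low genes the order changed from library to library, and in Lira mouse 1 *Acan* and *Cnmd* stood above *Sox9*.

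**Figure D1:**
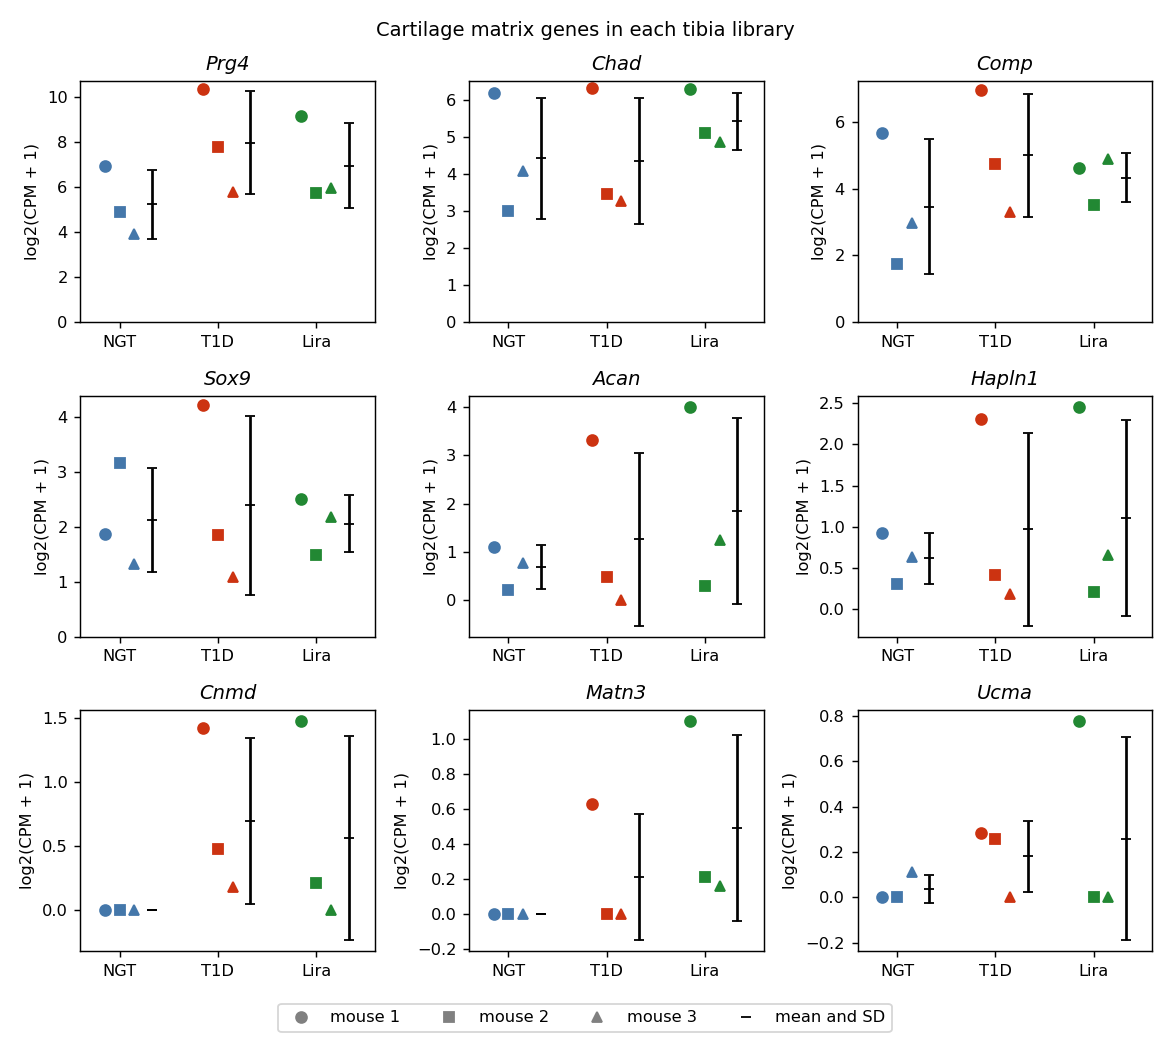
Levels of the 9 measured cartilage matrix genes as log2(CPM + 1) on the y axis, by group on the x axis, with 1 symbol per mouse (circle, mouse 1; square, mouse 2; triangle, mouse 3) and the group mean with SD in black. The circles of T1D and Lira mouse 1 lie above the other mice of their groups in every panel but *Comp*, where Lira mouse 3 is the highest of its group; the y axes differ between panels.

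*Prg4* (96875), the lubricin gene, had the widest range in CPM. It was measured at 120 CPM, 28.6 CPM and 13.9 CPM in NGT mice 1, 2 and 3. In T1D mice it was measured at 1329, 217.9 and 54.2 CPM. In Lira mice the levels were 568, 52.7 and 61.7 CPM. T1D mice 1 and 2 lay above all NGT mice, T1D mouse 3 lay between NGT mice 1 and 2, and Lira mice 2 and 3 lay within the NGT range, so the groups overlapped. Group means were 54.3 ± 57.7 CPM in NGT, 534 ± 694 CPM in T1D and 228 ± 295 CPM in Lira mice (SD, n = 3 each). Some *Prg4* counts were not whole, 369.7 in NGT mouse 2 for example, and how the authors' counting gave such values is not stated in the sources used here.

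*Comp* (12845), cartilage oligomeric matrix protein, which helps collagen fibrils assemble in cartilage and tendon, was measured at 49.9, 2.32 and 6.89 CPM in NGT mice. T1D mice had 122, 25.5 and 8.87 CPM, and Lira mice 23.3, 10.3 and 28.4 CPM. T1D mouse 1 was the highest and NGT mouse 2 the lowest of all, with the Lira mice inside the range of both other groups.

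*Chad* (12643) encodes chondroadherin, a leucine-rich protein that binds chondrocytes to collagen. Its levels were 72.4, 6.96 and 16.1 CPM in NGT, 79.7, 10.02 and 8.67 CPM in T1D and 78.1, 33.9 and 28.0 CPM in Lira mice. Mouse 1 of each group was the highest of its group, and these 3 differed little from one another. Group means were 31.8 ± 35.5, 32.8 ± 40.6 and 46.7 ± 27.4 CPM (SD, n = 3 each).

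*Sox9* (20682), the chondrocyte transcription factor, was measured at 2.67, 7.97 and 1.504 CPM in NGT mice. T1D mice had 17.5, 2.62 and 1.13 CPM and Lira mice 4.64, 1.79 and 3.50 CPM. The highest value was again in T1D mouse 1, but the second was in NGT mouse 2, the library in which *Comp*, *Chad*, *Acan* and *Hapln1* were each lowest of the NGT group.

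*Acan* (11595) encodes aggrecan, and *Hapln1* (12950) the link protein that fastens aggrecan to hyaluronan. *Acan* was measured at 1.14, 0.155 and 0.713 CPM in NGT mice, at 8.92, 0.393 and 0 CPM in T1D mice and at 15.1, 0.234 and 1.38 CPM in Lira mice. These values rest on few reads, with 18, 2 and 9 counts in NGT mice, 164, 6 and 0 counts in T1D mice and 211, 3 and 24 counts in Lira mice. *Hapln1* had 0.888, 0.232 and 0.554 CPM in NGT, 3.97, 0.327 and 0.133 CPM in T1D and 4.50, 0.156 and 0.574 CPM in Lira mice. Both genes were high in T1D mouse 1 and Lira mouse 1 and low in the other 7 mice. A count of 0 in T1D mouse 3 allows up to 0.2001 CPM, at 3 counts, so that *Acan* was not detectable there at this depth.

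The 3 genes under the count minimum showed the same libraries. *Cnmd* (16840), chondromodulin, a cartilage protein that keeps out blood vessels, had 31, 6 and 2 counts in T1D mice and 24.99, 2 and 0 counts in Lira mice, against 0 in each NGT mouse. *Matn3* (17182), a matrilin of the growth plate, had 10 counts in T1D mouse 1, 16 in Lira mouse 1, 2 in each of the other Lira mice and 0 elsewhere. *Ucma* (68527), a small secreted protein of the upper growth plate, had 1 count in NGT mouse 3, 4 and 3 counts in T1D mice 1 and 2, 10 counts in Lira mouse 1 and 0 elsewhere. Only T1D mouse 1 and Lira mouse 1 reached 10 counts of any of these genes. In the NGT libraries, a count of 0 allows 0.190 to 0.238 CPM, and such limits cover counting error only.

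In the comparison of T1D with NGT mice, none of the 6 tested cartilage matrix genes was called. A call required an adjusted p under 0.05 (edgeR's quasi-likelihood F test, Benjamini-Hochberg over 13960 genes) and a fold change over 2, which 0 of all genes met (0.0%). The estimated log2 fold change was 3.30 for *Prg4* (SE 1.44), 2.19 for *Acan* (SE 1.85), 1.40 for *Comp* (SE 1.17), 1.39 for *Hapln1* (SE 1.41), 0.81 for *Sox9* (SE 0.98) and 0.04 for *Chad* (SE 1.04). Only *Prg4* had an unadjusted p under 0.05 (edgeR's quasi-likelihood test, unadjusted p = 0.0490, adjusted p = 0.977). That was 1 of 6 genes, beside 552 of all tested genes (3.95%, with 2.36% higher in T1D). DESeq2 called 0 genes as well, with 697 at an unadjusted p under 0.05. In the exact permutation test of log2(CPM + 1), two-sided, *Prg4* gave p = 0.2, where 3 against 3 mice allow no p under 0.1.

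Of the 6 tested genes, 0 had groups that did not overlap, against 8.6% of all tested genes. *Cnmd*, detected in 3 of 3 T1D mice and 0 of 3 NGT mice, was the only one of the 9 measured genes without overlap (exact permutation p = 0.1, two-sided), and 2 of its 3 T1D values lay at or under 6 counts. Of the tested genes, to which *Cnmd* does not belong, 3.52% were without overlap and higher in T1D.

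All 6 tested genes had a fold change above 0, with a median log2 fold change of 1.40, where 52.1% of all tested genes were above 0 and their median was 0.02. The median was 0.69 with 5 of 6 above 0 when the replicate number was a block over all 9 libraries, 0.46 with 5 of 6 in limma on log2(CPM + 1) and 0.33 with 6 of 6 in limma on log2(FPKM + 1). The log2 fold change of *Acan* was 0.88, 0.57 and 0.34 in these fits, of which the last 2 add 1 to the level and so shrink the differences of low genes. *Acan* and *Hapln1* reached the count minimum only with the Lira libraries included, and in a fit of the 6 NGT and T1D libraries alone the median of the other 4 genes was 1.11, with 4 of 4 above 0. This direction rested on 1 library. Without T1D mouse 1, only 1 of the 6 genes lay above 0 and the median was -1.18. *Prg4* then had a log2 fold change of 1.32 (edgeR's quasi-likelihood test, unadjusted p = 0.323), while *Acan* had -1.74, *Hapln1* -1.26, *Comp* -0.20, *Sox9* -1.10 and *Chad* -1.77. *Chad* also turned without NGT mouse 2 (-0.43) and without NGT mouse 3 (-0.28). Without NGT mouse 1 the median was 2.37 and the fold changes of *Prg4* and *Comp* were 4.66 and 3.51, with adjusted p = 0.593 for both (edgeR's quasi-likelihood test, unadjusted p = 0.0298 and unadjusted p = 0.0189). Without NGT mouse 3 and without NGT mouse 2 the *Prg4* estimates were 2.84 and 2.99, with unadjusted p-values of 0.127 and 0.124 by the same test.

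**Figure D2:**
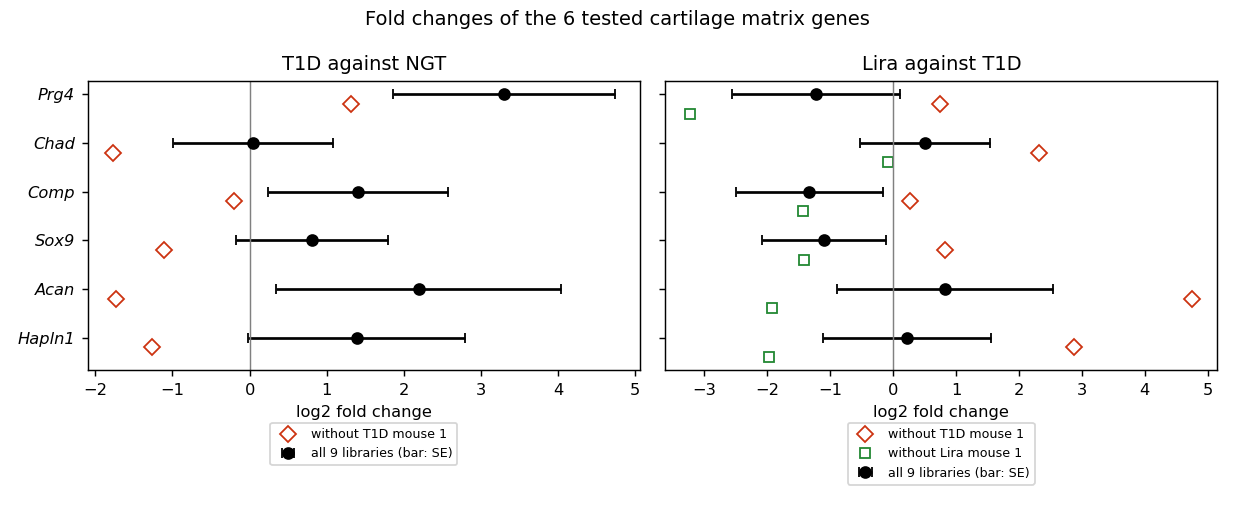
Log2 fold changes (x axis) of the 6 tested cartilage matrix genes (y axis) for T1D against NGT and for Lira against T1D, with black points and SE bars for all 9 libraries and open symbols for fits without T1D mouse 1 (diamonds) or without Lira mouse 1 (squares). Without T1D mouse 1, 5 of the 6 genes move below 0 in the first comparison and all 6 lie above 0 in the second, whereas without Lira mouse 1 all 6 lie below 0.

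Deviations from the group means correlated across genes between an NGT mouse and the T1D mouse that shares its number, which makes a comparison within numbers possible. *Prg4* was higher in the T1D mouse of each number, 11.1 times in mice 1, 7.62 times in mice 2 and 3.89 times in mice 3, and the mean difference in log2(CPM + 1) was 2.74 ± 0.79 (SD, n = 3). With the number as a block in all 9 libraries, a fit that also ties the Lira mice to numbers that were not accepted as pairs, its log2 fold change was 2.85 (SE 0.44, unadjusted p = 0.000318, adjusted p = 0.865 in edgeR's quasi-likelihood test). A block fitted to the 6 NGT and T1D libraries alone was added once the data had been seen. There the estimate was 2.80 (SE 0.32, unadjusted p = 0.000198) and the adjusted p was 0.229, beside 1931 genes with an unadjusted p under 0.05. *Comp* was higher in T1D in 3 of 3 pairs too, by 2.45, 11.01 and 1.29 times. *Acan* and *Hapln1* were higher in 2 of 3 pairs, *Chad* in 2 of 3 and *Sox9* in 1 of 3. The labels do not say what the numbers stand for.

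**Figure D3:**
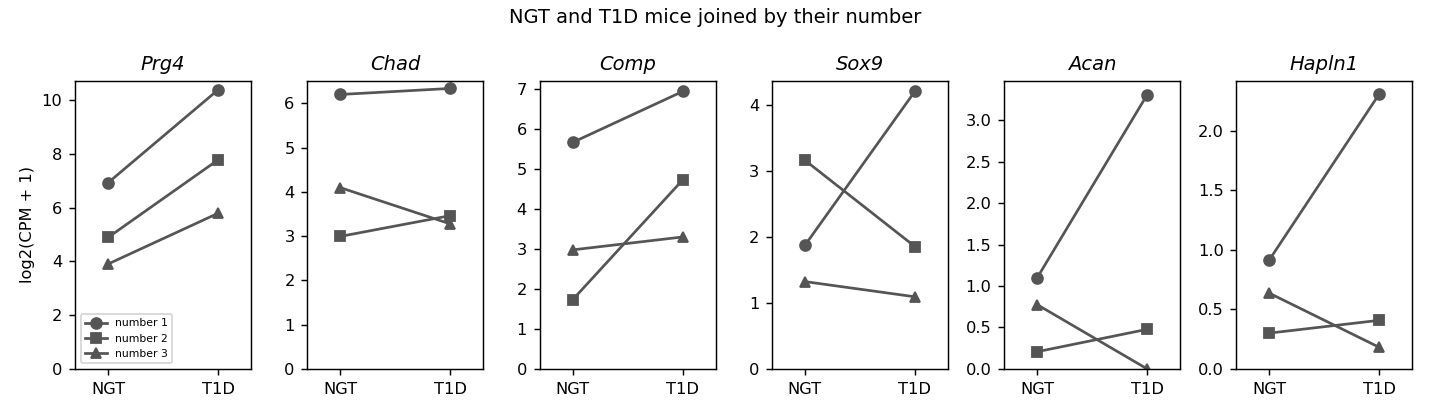
Levels of the 6 tested cartilage matrix genes as log2(CPM + 1) (y axis) in NGT and T1D mice (x axis), with lines joining mice of the same number. *Prg4* and *Comp* go up along all 3 lines, and the lines of *Sox9*, *Acan* and *Hapln1* are steepest for number 1.

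In the comparison of Lira with T1D mice, 0 of the 6 tested genes were called and 0 of 13960 genes in all (0.0%, edgeR's quasi-likelihood F test, Benjamini-Hochberg). None of the 6 had an unadjusted p under 0.05, which 465 of all genes did (3.33%), and DESeq2 called 1 gene, *Gpm6b*, which is not a cartilage matrix gene. The log2 fold change was -1.23 for *Prg4* (SE 1.33), -1.33 for *Comp* (SE 1.17), -1.10 for *Sox9* (SE 0.99), 0.22 for *Hapln1* (SE 1.34), 0.51 for *Chad* (SE 1.04) and 0.83 for *Acan* (SE 1.72). Lira and T1D mice overlapped for all 9 measured genes (7.13% of all tested genes did not overlap), and *Prg4* gave p = 0.6 in the two-sided exact permutation test. This comparison shares the T1D mice with the one before.

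The genes thus lay on both sides of 0, with 3 of 6 higher in Lira mice and a median of -0.44, beside a median of 0.04 over all tested genes. The median was -0.10 in limma on log2(CPM + 1), with 3 of 6 higher, and -0.20 in limma on log2(FPKM + 1), with 2 of 6 higher. Each direction again depended on single libraries. Without T1D mouse 1, all 6 were higher in Lira mice with a median of 1.57, and *Acan* and *Chad* had log2 fold changes of 4.75 and 2.32 (edgeR's quasi-likelihood test, unadjusted p = 0.0462 and unadjusted p = 0.0460, adjusted p = 0.998 for both). Without Lira mouse 1, 0 of 6 were higher and the median was -1.67, with *Prg4* at -3.22 (unadjusted p = 0.0614 in edgeR's quasi-likelihood test), *Acan* at -1.92, *Hapln1* at -1.97 and *Chad* at -0.09. *Hapln1* turned below 0 also without T1D mouse 2 (-0.26) and without T1D mouse 3 (-0.31). The medians without those 2 libraries were -0.89 and -0.96, and without Lira mice 2 and 3 they were -0.04 and -0.08.

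The spread between mice of a group was large for these genes. The pooled SD within groups of log2(CPM + 1) was 0.98 (*Hapln1*) to 1.94 (*Prg4*), above that of 92.9% and 99.4% of the tested genes, whose median was 0.31. Between-group differences made up 2.43% of the variance of *Sox9* and 33.8% of that of *Prg4*, with a median of 17.01% over all tested genes. In bulk tissue, fewer cells of a type and less RNA per cell cannot be told apart.

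T1D mouse 1 and Lira mouse 1 were the 2 highest libraries for 7 of the 9 measured genes in CPM (all but *Comp* and *Sox9*), and for 6 of 9 in FPKM, where *Chad* dropped out. Counting only the 6 genes that passed the count minimum, these were 4 of 6 in CPM and 3 of 6 in FPKM, beside 1.83% and 1.93% of all tested genes. The 2 libraries were picked after the levels of these genes had been seen. *Acan* and *Hapln1* passed the count minimum only with these libraries included. The shares are therefore a description and no test. *Chad*, *Comp*, *Prg4* and *Sox9* peaked in T1D mouse 1, while *Acan*, *Cnmd*, *Hapln1*, *Matn3* and *Ucma* peaked in Lira mouse 1 in CPM. In FPKM, *Cnmd* and *Hapln1* peaked in T1D mouse 1 instead. The genes in T1D mouse 1 and Lira mouse 1 did not stand in fixed proportion. In Lira mouse 1, *Prg4* was at 0.428 times and *Comp* at 0.191 times its level in T1D mouse 1, whereas *Acan* was at 1.69 times.

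Across the 9 libraries the 15 pairs of tested genes correlated at Pearson's r of 0.36 to 0.99 in log2(CPM + 1), with a median of 0.65. These are descriptions over libraries that include 3 groups and share the same scaling. *Acan* and *Hapln1* were the closest pair, with r = 0.99 and Spearman's rho = 0.97, and r was 0.91 without T1D mouse 1 and Lira mouse 1. Some other pairs rested on those libraries. The r of *Acan* with *Prg4* went from 0.80 to 0.14 without them, and that of *Acan* with *Sox9* from 0.60 to 0.09. *Chad* and *Sox9* had the lowest r (0.36), which was 0.67 without NGT mouse 2 and T1D mouse 1. By Spearman's rho, *Comp* and *Sox9* were lowest (0.40). Within a library, counts of *Chad* per count of *Prg4* ran from 0.0460 (T1D mouse 2) to 1.15 (NGT mouse 3), and the r of this pair was 0.65.

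Promoter windows of 300 bases (250 before and 50 after the RefSeq start) were available for 7 of the 10 genes, and 3 are shown because *Acan* and *Hapln1* were the pair most alike and *Chad* differed least between T1D and NGT mice. They are RefSeq sequences of GRCm38.p6, each on the plus strand, 5′ to 3′, at chr7:79052976-79053275 for *Acan*, chr13:89540386-89540685 for *Hapln1* and chr11:94564797-94565096 for *Chad*. The bases after the start were found in a GENCODE transcript of the gene for 5 of the 7 windows, *Hapln1* and *Chad* among them, but not for *Acan* or *Cnmd*, so the start of the *Acan* window rests on the RefSeq table alone. Capitals mark TATAAA. The submitters' processing notes name mm9, so these positions are not those of the expression table.
Acan: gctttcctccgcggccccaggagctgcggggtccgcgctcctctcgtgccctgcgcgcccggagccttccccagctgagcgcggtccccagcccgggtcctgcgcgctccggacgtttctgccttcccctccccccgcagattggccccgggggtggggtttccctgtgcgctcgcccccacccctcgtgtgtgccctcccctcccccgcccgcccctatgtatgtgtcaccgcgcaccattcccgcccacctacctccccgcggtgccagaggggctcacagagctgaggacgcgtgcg
Hapln1: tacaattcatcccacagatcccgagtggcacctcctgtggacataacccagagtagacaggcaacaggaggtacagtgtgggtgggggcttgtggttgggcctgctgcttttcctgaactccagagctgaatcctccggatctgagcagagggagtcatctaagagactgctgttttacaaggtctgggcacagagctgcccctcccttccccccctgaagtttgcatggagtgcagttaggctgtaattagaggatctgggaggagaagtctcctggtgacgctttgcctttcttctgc
Chad: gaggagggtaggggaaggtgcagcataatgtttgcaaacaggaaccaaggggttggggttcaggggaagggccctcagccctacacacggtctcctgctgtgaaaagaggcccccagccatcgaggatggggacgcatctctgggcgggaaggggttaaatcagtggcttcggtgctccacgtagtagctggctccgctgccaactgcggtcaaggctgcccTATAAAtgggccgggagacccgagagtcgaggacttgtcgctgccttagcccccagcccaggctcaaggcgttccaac

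The letters ACAATG and ACAAAG, forms of the core that SOX proteins bind, were searched on both strands. None of the 7 windows held either, whereas 28.6% of 32851 mouse windows of this length did. TATAAA was found in 1 of the 7, that of *Chad*, and in 13.6% of all windows. The *Acan* window had 74.0% G and C, that of *Chad* 61.0% and that of *Hapln1* 54.3%, with a median of 52.7% over all windows. A match, or the lack of one, describes only the letters of these windows.

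Of the 8 cartilage collagens, 4 (*Col2a1*, *Col9a2*, *Col9a3* and *Col10a1*) had their 2 highest levels in T1D mouse 1 and Lira mouse 1, and 4 (*Col9a1*, *Col11a1*, *Col11a2* and *Col27a1*) did not. *Col2a1*, the type II collagen gene, was measured at 11.04, 0.155 and 4.51 CPM in NGT mice, at 37.4, 2.42 and 7.47 CPM in T1D mice and at 34.4, 0.701 and 8.90 CPM in Lira mice. *Col10a1*, the marker of hypertrophic chondrocytes, was below the count minimum, with 33 counts in T1D mouse 1, 44 in Lira mouse 1 and at most 8 elsewhere. *Acan* did not follow *Col2a1* in proportion. Its count per *Col2a1* count was 0.103 in NGT mouse 1, 0.238 in T1D mouse 1 and 0.438 in Lira mouse 1, and T1D mouse 3 had 112 counts of *Col2a1* with none of *Acan*.

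Of 8 cartilage collagen genes, 6 were tested and 0 called in either comparison. Their median log2 fold change was 1.31 for T1D against NGT and -0.56 for Lira against T1D mice. The values for T1D against NGT were 2.97 for *Col9a1* (SE 1.54), 1.58 for *Col2a1* (SE 1.496), 1.42 for *Col9a2* (SE 1.26), 1.19 for *Col27a1* (SE 0.47), 0.48 for *Col11a2* (SE 0.68) and 0.14 for *Col11a1* (SE 0.78). *Col27a1*, a fibrillar collagen of growth plate cartilage, was the only one with an unadjusted p under 0.05 (edgeR's quasi-likelihood test, unadjusted p = 0.0340, adjusted p = 0.977), with 6.09, 2.09 and 2.93 CPM in NGT and 12.6, 7.20 and 5.67 CPM in T1D mice, where T1D mouse 3 lay below NGT mouse 1. *Col9a1* was highest in T1D mouse 2, at 6.16 CPM, and *Col11a1* in Lira mouse 1, at 12.1 CPM, lay below NGT mice 1 and 3. Without T1D mouse 1, a setting added for these lists once the data had been seen, *Col9a1* and *Col9a2* had too few counts to be tested, and the median of the other 4 was 0.05 for both comparisons. For T1D against NGT, *Col11a1* was then at -0.81, *Col2a1* at -0.09, *Col11a2* at 0.19 and *Col27a1* at 0.79, the last with an unadjusted p = 0.140 in edgeR's quasi-likelihood test.

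**Figure D4:**
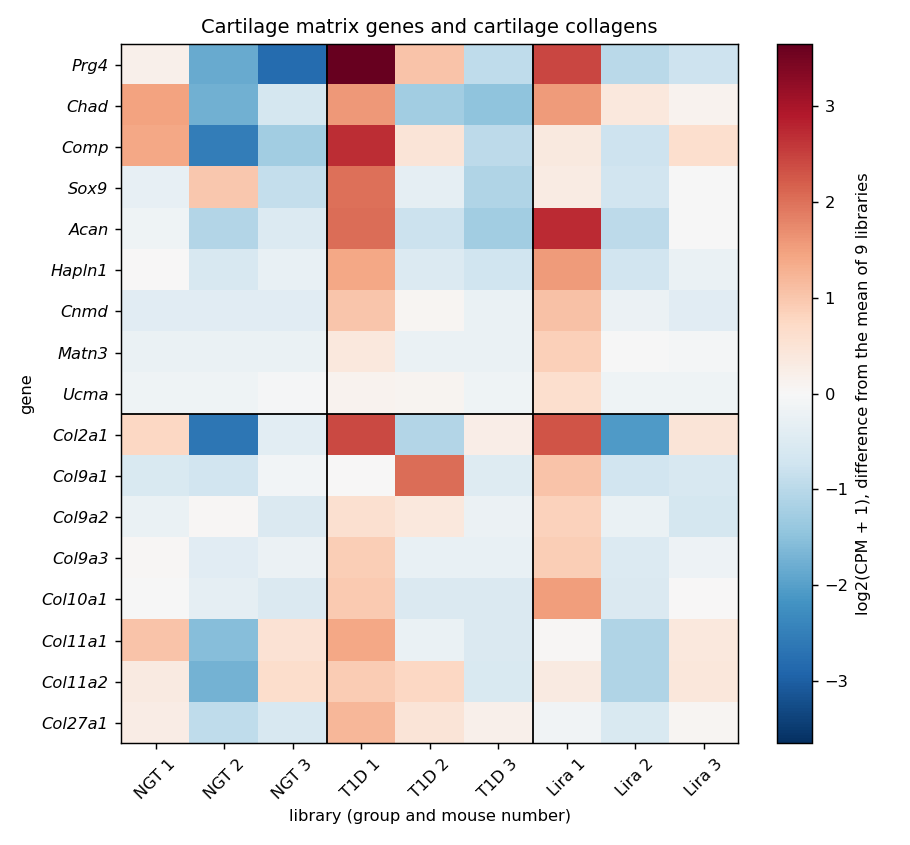
Levels of the 9 measured cartilage matrix genes (upper block of rows) and 8 cartilage collagen genes (lower block) in the 9 libraries (columns, by group and mouse number), coloured by the difference of log2(CPM + 1) from the gene's mean over the 9 libraries. The columns of T1D mouse 1 and Lira mouse 1 are red for most genes, and *Comp* and *Col2a1* are lowest in NGT mouse 2.

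Among other matrix and secreted proteins of cartilage, 18 of 25 genes were tested and 0 called, with a median log2 fold change of 0.31 for T1D against NGT and -0.22 for Lira against T1D mice, and of -0.27 and 0.68 over 17 genes without T1D mouse 1. The 3 most abundant were *Fmod*, fibromodulin, *Col6a1*, a type VI collagen chain, and *Prelp*, a leucine-rich matrix protein. Their log2 fold changes for T1D against NGT were -0.10 (SE 0.72), 0.97 (SE 0.62) and 0.16 (SE 0.72), and without T1D mouse 1 they were -0.91, -0.25 and -1.05. *Matn2*, a relative of *Matn3*, was the single gene with an unadjusted p under 0.05 in each comparison, which is why it is named. Its log2 fold changes were 1.23 (SE 0.46) for T1D against NGT and -1.75 (SE 0.46) for Lira against T1D mice, and 0.74 and -1.26 without T1D mouse 1. Without that library its unadjusted p was 0.1235 in the first comparison and 0.0197 in the second (edgeR's quasi-likelihood test, adjusted p = 0.9998 and 0.9978).

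Of 27 transcription factors and signals of chondrocytes, 22 were tested, 0 were called and 0 had an unadjusted p under 0.05 in either comparison (edgeR's quasi-likelihood test). *Sox6*, which acts with *Sox9*, had a mean of 172 ± 40.1 CPM in NGT, 148 ± 86.6 CPM in T1D and 163 ± 13.8 CPM in Lira mice (SD, n = 3 each). T1D mouse 1 had 55.7 CPM against 160 and 228 CPM in T1D mice 2 and 3, and leaving it out turned the log2 fold changes of *Sox6* from -0.22 to 0.17 for T1D against NGT and from 0.14 to -0.25 for Lira against T1D. The summed level of this list was 562 to 776 CPM in all libraries and had r = 0.08 over 9 libraries with the mean z score of the 6 tested cartilage matrix genes. Its abundant genes are also expressed by other tissues, skeletal muscle included.

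For the hypertrophic chondrocyte list, 9 of 12 genes were tested, 0 called, and *Mmp13*, a collagenase, and *Mef2c*, a transcription factor of hypertrophy and of muscle, had unadjusted p-values under 0.05 for T1D against NGT, the first higher and the second lower. *Mmp13* had a log2 fold change of 3.21 (SE 1.40) and *Mef2c* of -0.53 (SE 0.22). With T1D mouse 1 left out these were 2.44 and -0.47, neither with an unadjusted p under 0.05, and the median of the list was 0.21 in place of 0.91. Of 24 tested genes of 25 for proteoglycan synthesis, 0 were called and *Xylt1*, which starts the sugar chains, was the only one with an unadjusted p under 0.05, with a log2 fold change of -1.10 for T1D against NGT and of -1.003 without T1D mouse 1, where its unadjusted p was 0.0865 (edgeR's quasi-likelihood test). The median log2 fold change of the list was 0.09 for T1D against NGT and -0.04 for Lira against T1D mice.

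Of 14 proteases and inhibitors of cartilage matrix, all were tested, 0 were called, and *Mmp3*, *Mmp13*, *Mmp14* and *Timp1* had an unadjusted p under 0.05 with a higher mean in T1D than NGT, beside 2.36% of all tested genes. *Mmp3*, *Mmp14* and *Timp1* had one in the Lira comparison too, with a lower mean in Lira mice (1.78% of all tested genes). These genes were named after their values were seen, and 8 of the 14 peaked in T1D mouse 1. *Mmp3*, stromelysin, stood at 69.2 CPM in T1D mouse 1 but at 1.77 and 0.800 CPM in T1D mice 2 and 3, both below NGT mouse 1 (1.84 CPM). *Timp1*, an inhibitor of these proteases, stood at 44.5, 5.57 and 3.80 CPM in T1D mice and at 0.464 to 2.16 CPM in NGT mice, which did not overlap. Without T1D mouse 1, 0 of the 14 had an unadjusted p under 0.05 in either comparison, and for T1D against NGT *Mmp3* was at -0.02, *Timp1* at 1.93, *Mmp13* at 2.44 and *Mmp14* at 0.65. Among 11 tested genes of 12 for the superficial zone, synovial lining and joint, where *Prg4* is made, 0 were called, and *Htra4*, *Pdpn* and *Tspan15* had an unadjusted p under 0.05 with a higher mean in T1D than NGT. *Pdpn* and *Tspan15* had one for Lira against T1D, with a lower mean in Lira mice. Leaving out T1D mouse 1, *Tspan15* kept an unadjusted p under 0.05 in both comparisons, at log2 fold changes of 0.64 and -0.60, *Erg* joined it for T1D against NGT, and *Pdpn* (0.48) and *Htra4* (1.47) had none. All of these were named after their values were seen. *Cilp*, a protein of the intermediate cartilage layer, had log2 fold changes of 0.23 (SE 0.73) and 0.09 (SE 0.73), and of -0.86 and 1.18 without T1D mouse 1. In the tendon and ligament list, 0 of 11 genes were called or had an unadjusted p under 0.05 in either comparison (edgeR's quasi-likelihood test), and without T1D mouse 1 *Kera* alone had one, for T1D against NGT.

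Markers of some other cells also moved with the cartilage matrix genes. The 13 osteoblast genes summed to 650 to 2205 CPM in NGT, 1481 to 7441 CPM in T1D and 928 to 1900 CPM in Lira mice, and 11 of them peaked in T1D mouse 1 and 0 in Lira mouse 1. The 10 macrophage genes summed to 1013 CPM in T1D mouse 1 and to 46.1 to 184 CPM in the other 8 libraries. The 9 osteocyte genes, of which 8 were tested, summed to 59.6 CPM in T1D mouse 1 and to 14.5 to 32.4 CPM elsewhere. The 19 muscle genes were lowest in T1D mouse 1. Of 10 adipocyte and 14 osteoclast genes, 8 each peaked in T1D mouse 1, although their summed levels there (6625 and 569 CPM) lay within the range of the other libraries (4180 to 8448 CPM and 140 to 1028 CPM). Over the 9 libraries, the summed level of each list had r = 0.72 (osteoblast), 0.76 (macrophage), 0.86 (osteocyte), 0.35 (osteoclast), -0.31 (adipocyte) and -0.70 (skeletal muscle) with the mean z score of the 6 tested cartilage matrix genes. In Lira mouse 1, where 7 of the 9 cartilage matrix genes were highest or second highest and *Comp* was at its median over the libraries, the osteoblast genes (1549 CPM), macrophage genes (111 CPM) and muscle genes (23.5% of counts) lay within the range of the other libraries. The part of these cells in the levels of the cartilage matrix genes was not tested. With the 19 muscle genes removed before scaling, the log2 fold change of *Prg4* for T1D against NGT was 3.30 as before. This setting changes only the scaling, so it cannot show what part the muscle content of the bones had.

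The genes whose pattern over the 9 libraries was most like the mean z score of the 6 tested cartilage matrix genes, among 10410 genes of at least 5 CPM, were *Fn1*, fibronectin (r = 0.936), *Rassf4* (0.929), *Rbbp9* (0.923), *Samd4b* (0.921), *Tgif1*, a transcriptional repressor (0.918), and *Osmr*, the oncostatin M receptor (0.911). *Fn1* had 1627 CPM in T1D mouse 1, 451 CPM in NGT mouse 1, 357 CPM in Lira mouse 1 and 81.9 to 229 CPM in the others. The score itself was 1.63 in T1D mouse 1, 1.10 in Lira mouse 1 and 0.28 in NGT mouse 1, and below 0 in the other 6 libraries.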

How the data were processed

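RNA-seq of 9 tibiae was used, 3 each from NGT, T1D and Lira mice, grouped by their labels. The authors aligned clean reads to the mouse genome (mm9 in the submitters' processing notes, aligner and counter not given in the sources used here) and deposited expected counts per gene, not normalized, and FPKM values scaled for length and library total. Of the counts, 30.2% were not whole (more than 1e-06 from a whole number), and 0 sample columns were left unassigned. Counts were rounded and genes with at least 10 counts in 3 libraries were tested in edgeR 4.0.16 (R 4.3.3, TMM, glmQLFit and glmQLFTest, 3 group means), with the thresholds of the report. On simulated data for T1D against NGT (13960 genes, 200 of them altered), 112 were recovered at a 4-fold and 174 at a 16-fold difference, with 4 and 6 false calls. The altered genes were drawn from all tested genes, most of which had less spread than the cartilage matrix genes. Recovery was not measured for the cartilage matrix genes themselves. CPM used the TMM-scaled total of tested genes, and 1 was added before log2. The floor of 3 counts was 0.163 to 0.238 CPM. The labels name no batches. The edgeR p-values set a group difference against the spread between mice, estimated over all libraries fitted and with information shared across genes.

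The cartilage genes and the lists were chosen with earlier results of these data known. Genes named were the 10 cartilage genes, the cartilage collagens (those not tested were named after their values were seen), at most the 3 most abundant tested genes of each list, genes with an unadjusted p under 0.05 (named after their values were seen) and the 6 genes most alike in pattern. Erythroid, neutrophil, B cell, adipocyte, endothelial, osteocyte and osteoclast lists were also examined, with 0 genes called in each. Deviations from group means correlated at r = 0.600, 0.641 and 0.284 across genes for NGT and T1D mice of numbers 1, 2 and 3, each over 0.1. For T1D and Lira mice they correlated at -0.286, 0.608 and 0.246. Pairing by number was therefore accepted for NGT and T1D mice only, and was read from these same data. DESeq2 1.42.0, limma 3.58.1, library size in place of TMM, no filter, no fold threshold, edgeR's robust option, removal of muscle genes, the replicate block, fits restricted to the groups compared and leaving out each mouse were the alternatives. Authors' fold changes were not used.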

Additional observations from a re-analysis of the deposited data

How the results depend on the processing

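In 190 log2 fold changes of the 6 tested cartilage matrix genes under other settings, 165 kept the direction and 25 turned, 15 of these when 1 mouse was left out. In any of the settings, 0 genes of the list were called. For T1D against NGT, DESeq2 gave an adjusted p to *Prg4* only (0.262), so the others could not be called there. Leaving out 1 mouse moved the T1D against NGT values of *Acan* between -1.74 and 2.84, *Comp* between -0.20 and 3.51, *Hapln1* between -1.26 and 1.92, *Sox9* between -1.10 and 1.76, *Chad* between -1.77 and 1.52 and *Prg4* between 1.32 and 4.66. For Lira against T1D the ranges were -1.92 to 4.75, -1.84 to 0.27, -1.97 to 2.87, -1.60 to 0.82, -0.0864 to 2.32 and -3.22 to 0.74 in the same order. Without both T1D mouse 1 and Lira mouse 3, *Comp* (-0.25), *Sox9* (-1.12) and *Chad* (-1.82) turned for T1D against NGT, and *Sox9* (0.78) and *Prg4* (1.20) for Lira against T1D, where *Chad* was at 2.59, and *Acan* and *Hapln1* had too few counts to be tested. For T1D against NGT, *Chad* was -0.0715 with limma on log2(CPM + 1), and *Hapln1* for Lira against T1D was -0.13 with library size in place of TMM and -0.0080 with limma on FPKM.

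With the replicate number as a block, *Chad* for T1D against NGT was -0.0918, and -0.0709 with the 6 libraries alone (this second block was added once the data had been seen), while the block changed no call (0 genes in each comparison). For Lira against T1D, whose numbers share no established pairing, the block gave a median of -0.07 and moved *Comp* to -0.63, and *Prg4* (-1.03, unadjusted p = 0.0433 in edgeR) and *Chad* (1.17, unadjusted p = 0.0314 in edgeR) had an adjusted p of 0.988, among 507 genes with an unadjusted p under 0.05. Such genes for T1D against NGT numbered 752 with the block and 1931 with the block and only 6 libraries. The count of genes called was 0 in each comparison under every setting but DESeq2, which called 1 for Lira against T1D. The cause of these shifts was not tested. The depth limits *Acan*, *Hapln1*, *Cnmd*, *Matn3* and *Ucma* most, since in most libraries they had under 30 counts.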
